A study of Arabidopsis thaliana with 16 samples.

Results

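Heated A2QK seedlings were compared with heated hsfa2 seedlings of Arabidopsis thaliana. A2QK carries HSFA2 under the constitutive 35S promoter in the QK quadruple knockout, in which HSFA1a, HSFA1b, HSFA1d and HSFA1e are disrupted, in a background mixed from Col-0 and Ws. The line is labelled A2QK-10 and is 1 line. The hsfa2 knockout is in Col-0 and keeps its HSFA1 genes. The comparison holds 4 of the 16 arrays of the study, with 2 arrays a group, chosen by genotype and treatment labels alone. All groups were whole 7-day-old seedlings grown on 0.5X MS medium at 22 °C, and heated groups were held for 1 h in a water bath at 37 °C. The remaining 12 arrays are A2QK and hsfa2 at 22 °C, and QK (mixed Col-0 and Ws) and WT (Col-0) at both temperatures. Because the 2 genotypes differ in the HSFA1 genes, in HSFA2 and in background at once, these cannot be told apart in any difference given here.

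Heat shock factors are transcription factors that bind heat shock elements in promoters and raise the transcripts of molecular chaperones. In Arabidopsis the HSFA1 factors act as the early master regulators, while HSFA2 is itself heat-induced through HSFA1 and prolongs and strengthens the response. By genotype, hsfa2 seedlings thus keep the HSFA1 genes without HSFA2, and A2QK seedlings carry constitutively expressed HSFA2 without HSFA1a, b, d or e. Other factors may act in both, and which factors drive the response in either was not tested.

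Levels are log2 RMA values of Affymetrix ATH1 probe sets, as the authors deposited them, and a difference of 1 on this scale is a 2-fold change. A probe set is called where limma gave an adjusted p (Benjamini-Hochberg over 22746 probe sets) under 0.05. Each difference is A2QK minus hsfa2, with its standard error (SE) from 1 fit of all 16 arrays. No probe set listed for HSFA1a, b, d, e or HSFA2 was among those with a named gene, so the genotypes were not checked here. The 2 arrays of a group correlated at r = 0.993 in heated A2QK and 0.985 in heated hsfa2, against 0.970 in heated QK and 0.968 in heated WT. The spread within QK and WT was wider, at a root mean square SD of 0.392 in heated QK and 0.400 in heated WT, against 0.185 in heated A2QK and 0.269 in heated hsfa2. The shared fit carries that wider spread into the SE of each difference, so the calls of a fit to the 8 A2QK and hsfa2 arrays alone are given as well. Whether the A2QK and hsfa2 arrays were processed together with those of QK and WT is not given in the sources used here. No label says whether the 2 replicates of a group were grown apart, so the p-values here speak of array-to-array spread that may be technical alone. Arrays have no read depth, and their small number limits the precision. In whole seedlings, fewer cells of a type and less RNA per cell cannot be told apart.

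After heat, 3048 of 22746 probe sets (13.4%) were called, 1724 higher in A2QK (7.58%) and 1324 lower (5.82%). Of these, 1548 differed by 2-fold or more, which is 6.81% of all tested, 1062 of them higher (4.67%) and 486 lower (2.14%) in A2QK. The median over all probe sets was -0.06. With array medians set equal it became -0.19, and then 3684 were called, of which 37.0% were higher in A2QK against 56.6% on the deposited scale, so the balance of directions depends on the scaling. The fit of the 8 A2QK and hsfa2 arrays alone called 5583 (24.5%), 2949 higher (13%) and 2634 lower (11.6%). The count fell to 1321 without heated A2QK replicate 1, 1378 without heated A2QK replicate 2 and 1896 without heated hsfa2 replicate 2.

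Small heat shock proteins bind unfolding proteins and hold them in a refoldable state. Of 18 family members, 11 were measured, with a median difference of -0.11. In heated A2QK 1 was higher and 1 lower (9.09% each, against 7.58% and 5.82% of all probe sets), and 9 were not called. Fitted on the 8 arrays alone, 2 were higher (18.2%, HSP14.7 and HSP15.4) and 3 lower (27.3%, HSP18.5, HSP15.7 and HSP23.5), against 13% and 11.6% of all probe sets. HSP17.6C (AT1G53540), a cytosolic class I member, stood at 12.96 and 13.02 in heated A2QK, against 13.06 and 13.05 in heated hsfa2. The difference was -0.07 (SE 1.26, limma adjusted p = 0.98), with a 95% interval of -2.83 to 2.70 in the shared fit and -0.35 to 0.22 in the fit of the 8 arrays, and all levels were near the highest of any array, 13.35. HSP17.6B (AT2G29500), of the same class, stood at 12.31 and 12.16 in heated A2QK, against 12.65 and 12.57 in heated hsfa2. HSP22 (AT4G10250), which is found in the endoplasmic reticulum, stood at 12.16 on both heated A2QK arrays, against 12.01 and 12.07 in heated hsfa2. HSP26.5 (AT1G52560) stood at 12.40 and 12.24 in heated A2QK, against 12.06 and 11.93 in heated hsfa2. For HSP17.6B all A2QK values were below all hsfa2 values, and for HSP22 and HSP26.5 they were above, without a call for HSP17.6B, HSP22 or HSP26.5. With 2 arrays a group such separation is common, and 14084 of the 22746 probe sets had it after heat. The difference of HSP22 changed sign with equal array medians.

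HSP18.5 (AT2G19310) was the member that was lower. Its level was 10.42 and 10.21 in heated A2QK, against 11.81 and 11.69 in heated hsfa2, a difference of -1.43 (SE 0.38, limma adjusted p = 0.030). That call was lost whenever 1 of the 4 heated arrays was left out, with an adjusted p of 0.101 to 0.158. HSP14.7 (AT5G47600) was the member that was higher, but at a low level of 4.05 and 4.22 in heated A2QK, against 2.95 and 2.61 in heated hsfa2 (difference 1.35, SE 0.20, adjusted p = 0.0010). HSP14.7 was not called as heat-raised in WT, at 2.90 and 3.22 after heat.

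At 22 °C, 6 of the 11 small heat shock proteins were higher in A2QK and 5 were not called. Over all probe sets 624 (2.74%) were called there, 368 higher in A2QK (1.62%) and 256 lower (1.13%). HSP17.6C stood at 11.22 and 11.25 in unheated A2QK, against 3.03 and 3.098 in unheated hsfa2, a difference of 8.17 (limma adjusted p = 0.0051). HSP22 stood at 11.04 and 10.93 in unheated A2QK, against 3.85 and 4.00 in unheated hsfa2 (difference 7.06, adjusted p = 0.0022). Differences of 6.25 for HSP17.6B, 5.54 for HSP26.5, 3.74 for HSP15.7 and 1.75 for HSP14.7 were called as well. The call of HSP15.7 ended without any 1 of the 4 unheated arrays (adjusted p 0.0774 to 0.117) and that of HSP17.6C without hsfa2 replicate 2 or either A2QK array (0.053 to 0.057). Without any 1 of the 4 unheated arrays the count of 624 was 169 to 285. The unheated level lay within 2 log2 units of the heated one for HSP17.6C and HSP22 in A2QK, and over 7 log2 units below it in hsfa2. HSP17.4III (AT1G54050) went the other way, at 4.45 and 5.10 in unheated A2QK against 5.95 and 5.99 in unheated hsfa2, which was not called (adjusted p = 0.62), and it reached 11.79 and 11.59 in heated A2QK against 12.17 and 12.08 in heated hsfa2.

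The difference between the heat responses was tested directly, as A2QK heated minus unheated less the same in hsfa2. It was called for 441 probe sets (1.94%), larger in A2QK for 303 (1.33%) and smaller for 138 (0.607%). Of the small heat shock proteins, 5 had a smaller response in A2QK, HSP17.6C by -8.24 (limma adjusted p = 0.042), HSP22 by -6.94 (0.026), HSP17.6B by -6.63 (0.014), HSP26.5 by -5.22 (0.040) and HSP15.7 by -4.33 (0.042). For HSP17.6C the value sets heated levels near the highest value of any array (13.35) against unheated hsfa2 levels near the low end (lowest value 1.58), and how far the scale holds at both ends was not tested. The fit of the 8 A2QK and hsfa2 arrays alone put 7 of 11 there, against 2.18% of all probe sets. In the shared fit all 8 arrays were needed for the calls of HSP17.6C, HSP22, HSP26.5 and HSP15.7, which ended without any 1 of them (adjusted p 0.0708 to 0.153) and with a trended eBayes prior (0.0546 to 0.0847). The call of HSP17.6B ended without 7 of the 8 arrays in turn (highest adjusted p 0.0688). Leaving out any 1 of those 8 arrays lowered the count of 441 to between 124 and 269.

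**Figure D1:**
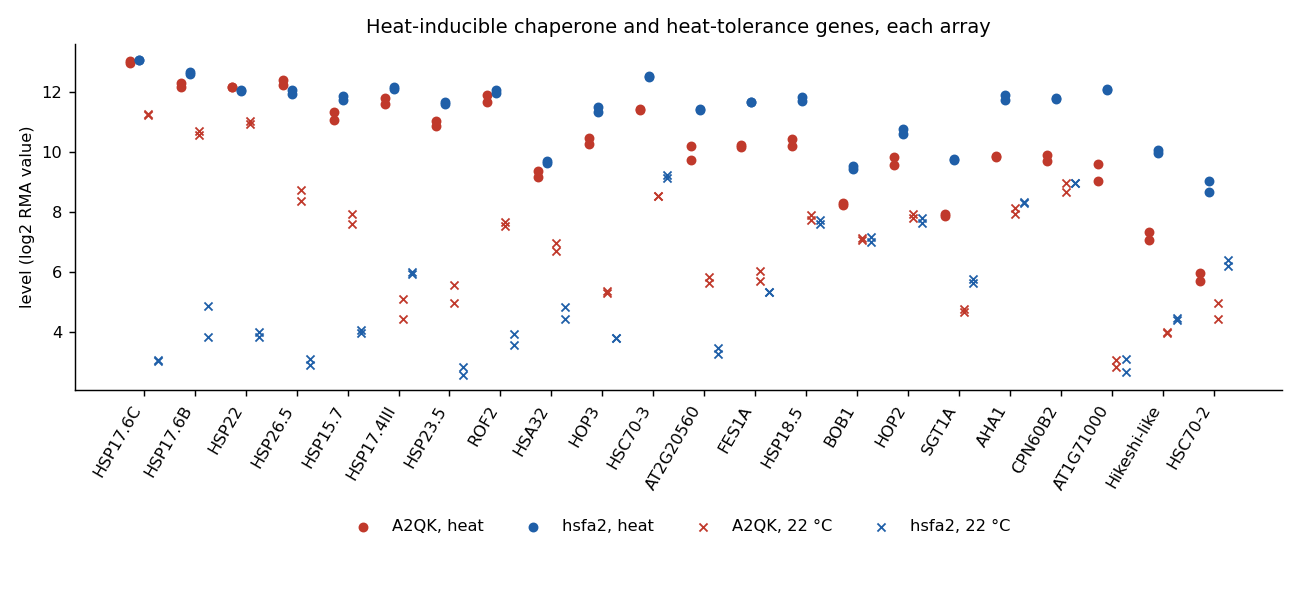
Level of 22 chaperone and heat-tolerance genes on each array (log2 RMA value, vertical axis) in heated A2QK, heated hsfa2, unheated A2QK and unheated hsfa2, 2 arrays a group, 1 symbol an array. HSP17.6C, HSP17.6B, HSP22 and HSP26.5 lie between 11.93 and 13.06 in both heated genotypes, while HSC70-2, Hikeshi-like and AT1G71000 at the right lie lower in heated A2QK than in heated hsfa2.

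In the lists of HSP70 chaperones, chaperonins and co-chaperones, all members called were lower in heated A2QK. HSC70-2 (AT5G02490), a cytosolic HSP70 chaperone, stood at 5.70 and 5.97 in heated A2QK, against 9.02 and 8.67 in heated hsfa2. The difference was -3.01 (SE 0.39, limma adjusted p = 0.00050) and put its level 8.04-fold higher in hsfa2. HSC70-3 (AT3G09440), of the same family, was 11.43 and 11.40 in heated A2QK, against 12.51 and 12.50 in heated hsfa2. That difference of -1.09 was not called (SE 0.68, adjusted p = 0.34), though it was in the fit of the 8 arrays (adjusted p = 0.00041). These 2 are the measured members of 13 in the HSP70 and HSP110 list. None of the 9 members of the HSP90 and HSP100 list, and none of 21 heat shock factors, was measured. Of 3 measured chaperonins, CPN60B2 (AT3G13470), a subunit of the plastid folding chamber, was lower, at 9.70 and 9.89 in heated A2QK against 11.79 and 11.76 in heated hsfa2 (difference -1.97, SE 0.51, adjusted p = 0.025). Its call was lost without any 1 of the 4 heated arrays (adjusted p 0.0897 to 0.136), and CPN60B3 and CPN10-2 were not called. The fit of the 8 arrays called 2 of the 3 lower (66.7%, against 11.6% of all probe sets).

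Co-chaperones load clients onto HSP70 and HSP90 and drive their cycles. Of 10 measured among 19, 4 were lower in heated A2QK (40%, against 5.82% of all probe sets), 6 were not called and none was higher, with a median difference of -1.26. The J-domain gene AT1G71000 stood at 9.61 and 9.03 in heated A2QK, against 12.06 and 12.08 in heated hsfa2 (difference -2.75, SE 0.45, limma adjusted p = 0.0022). It was low without heat in both, at 2.86 and 3.08 in A2QK and 2.69 and 3.11 in hsfa2, and the heat response itself was called smaller in A2QK, by -2.82 (adjusted p = 0.049), a call that ended without any 1 of the 8 arrays (0.103 to 0.194). AHA1 (AT3G12050), an activator of the HSP90 ATPase, stood at 9.88 and 9.82 in heated A2QK, against 11.90 and 11.74 in heated hsfa2 (difference -1.97, SE 0.27, adjusted p = 0.00068). SGT1A (AT4G23570), an HSP90 partner also used in disease resistance, stood at 7.92 and 7.87 in heated A2QK, against 9.72 and 9.77 in heated hsfa2. HOP2 (AT1G62740), which bridges HSP70 and HSP90, stood at 9.83 and 9.57 in heated A2QK, against 10.61 and 10.77 in heated hsfa2. SGT1A differed by -1.85 (SE 0.22, adjusted p = 0.00024) and HOP2 by -0.99 (SE 0.15, adjusted p = 0.0011). SGT1A was also called lower in A2QK at 22 °C, a call that ended without any 1 of the 8 arrays.

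Another group of co-chaperones had negative differences of similar size without a call in the shared fit. FES1A (AT3G09350), an HSP70 partner needed for acquired thermotolerance, stood at 10.15 and 10.23 in heated A2QK, against 11.67 and 11.66 in heated hsfa2 (difference -1.47, SE 0.53, limma adjusted p = 0.093). The J-domain gene AT2G20560 differed by -1.46 (adjusted p = 0.095) and HOP3 (AT4G12400) by -1.06 (adjusted p = 0.41). FES1A, AT2G20560 and HOP3 were called in the fit of the 8 A2QK and hsfa2 arrays, which called 7 of the 10 co-chaperones lower (11.6% of all probe sets were). ROF2 (AT5G48570), an immunophilin known to act with HSFA2, was 11.89 and 11.67 in heated A2QK, against 12.04 and 11.97 in heated hsfa2 (difference -0.23, SE 0.81, adjusted p = 0.89). Without heat ROF2 was higher in A2QK, at 7.55 and 7.68 against 3.95 and 3.58 in hsfa2 (difference 3.85, adjusted p = 0.028). That call ended without any 1 of the 4 unheated arrays or either heated A2QK array. It also ended with a trended eBayes prior (limma adjusted p = 0.0561).

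Of 11 other heat-tolerance genes, 4 were measured and 2 were lower in heated A2QK (50%, against 5.82% of all probe sets). The Hikeshi-like gene AT1G66080, whose human counterpart carries HSP70 into the nucleus, stood at 7.35 and 7.08 in heated A2QK, against 10.06 and 9.95 in heated hsfa2 (difference -2.79, SE 0.27, limma adjusted p = 7.2e-05). BOB1 (AT5G53400), a small chaperone-like protein needed for development and heat tolerance, was at 8.22 and 8.32 in heated A2QK, against 9.55 and 9.42 in heated hsfa2 (difference -1.21, SE 0.28, adjusted p = 0.015). BOB1 lost its call without any 1 of the 4 heated arrays (adjusted p 0.0561 to 0.0942). HSA32 (AT4G21320), which prolongs acquired thermotolerance, was 9.38 and 9.18 in heated A2QK and 9.64 and 9.69 in heated hsfa2 (difference -0.39, SE 0.28, adjusted p = 0.41). At 22 °C HSA32 was higher in A2QK by 2.20 (adjusted p = 0.0015), and its heat response was smaller by -2.59 (adjusted p = 0.0071), or 0.0505 without unheated A2QK replicate 2. ZAT10 was not called (-0.73).

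**Figure D2:**
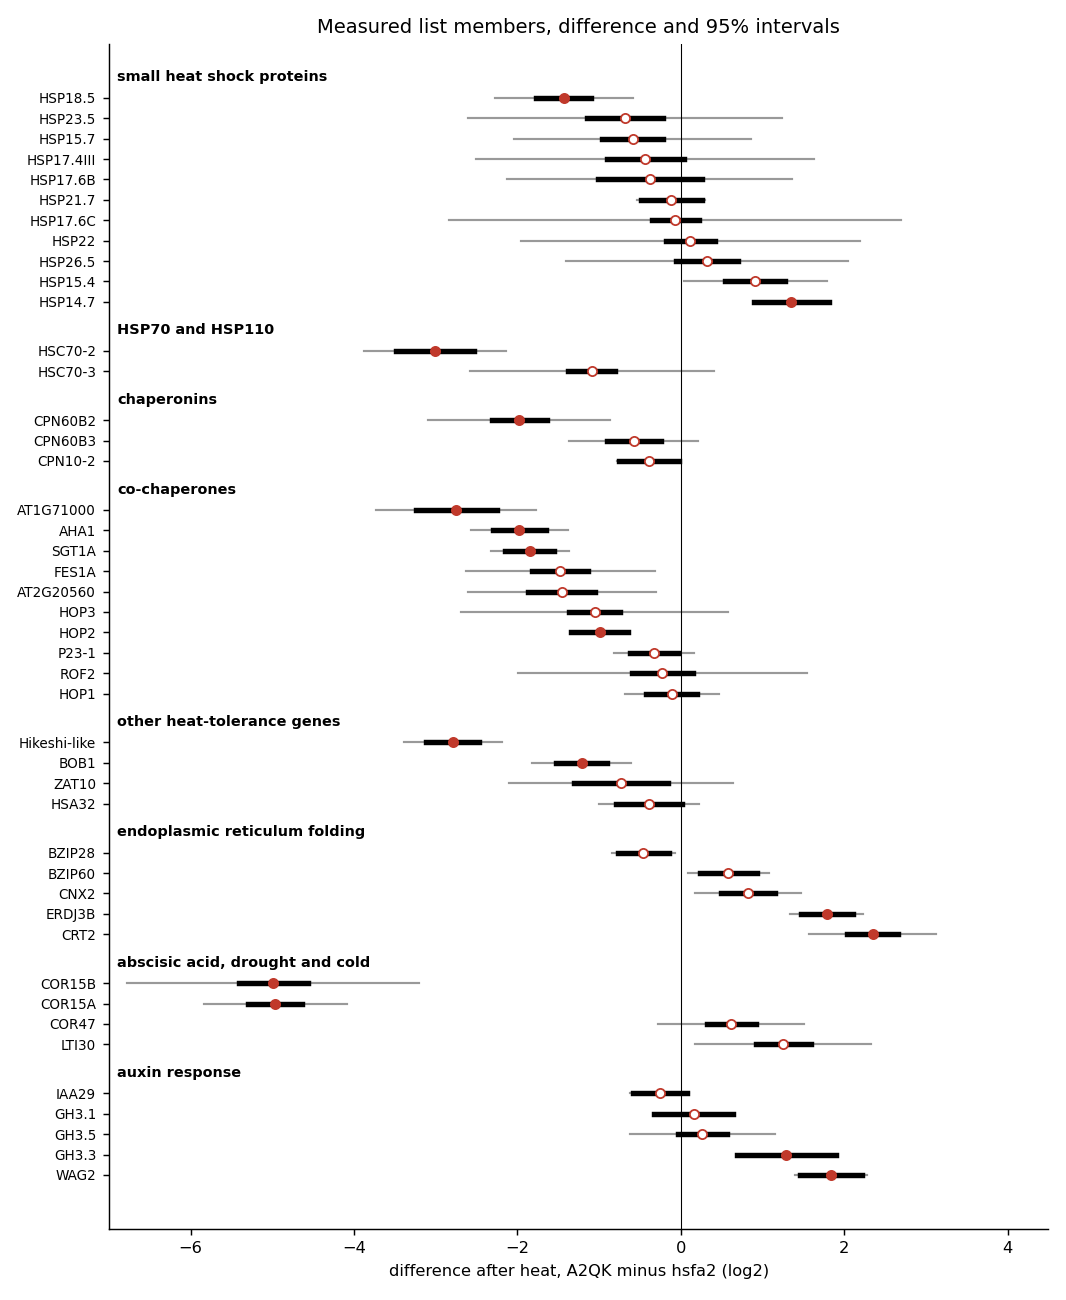
Difference after heat (A2QK minus hsfa2, log2, horizontal axis) for measured members of 8 gene lists, grouped by list. Points are differences, filled where called, grey lines are 95% intervals of the shared fit of 16 arrays and black lines those of the 8 A2QK and hsfa2 arrays alone; the called co-chaperones lie between -2.75 and -0.99, while CRT2 (2.35) and ERDJ3B (1.79) lie to the right of 0.

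Of 20 listed genes of protein folding in the endoplasmic reticulum, 5 were measured, with a median difference of 0.82. In heated A2QK 2 were higher (40%, against 7.58% of all probe sets) and 3 were not called. The fit of the 8 arrays called 4 of the 5 higher (80%, against 13% of all) and 1 lower (20%, against 11.6%). CRT2 (AT1G09210), the calcium-binding lectin chaperone calreticulin, stood at 10.83 and 10.77 in heated A2QK, against 8.56 and 8.33 in heated hsfa2 (difference 2.35, SE 0.35, limma adjusted p = 0.0013). ERDJ3B (AT3G62600), a J-domain partner of the luminal HSP70, stood at 10.02 and 10.15 in heated A2QK, against 8.33 and 8.25 in heated hsfa2 (difference 1.79, SE 0.20, adjusted p = 0.00020). At 22 °C these did not differ by a call, with differences of 0.04 for CRT2 and 0.17 for ERDJ3B. The heat response of both was larger in A2QK, by 2.31 for CRT2 (adjusted p = 0.042) and by 1.62 for ERDJ3B (adjusted p = 0.018). That call ended for CRT2 without any 1 of the 8 arrays (0.0833 to 0.149) and with quantile normalization (0.0508), and for ERDJ3B without 7 of the 8 in turn (highest 0.0909). Heated QK was high as well, at 11.25 and 11.90 for CRT2 and 10.02 and 10.58 for ERDJ3B, while heated WT was at 8.47 and 9.10 for CRT2 and 8.28 and 8.46 for ERDJ3B. CNX2, a calnexin, differed by 0.82 (adjusted p = 0.096, and 0.0037 in the fit of the 8 arrays). BZIP60 (0.58) and BZIP28 (-0.46), transcription factors that signal unfolded protein in this compartment, were called in the fit of the 8 arrays alone, BZIP60 as higher (adjusted p = 0.025) and BZIP28 as lower (0.040).

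To see where the WT heat response fell, 500 probe sets raised at least 2-fold and called in heated WT over WT at 22 °C (2.20% of those tested) were followed in the comparison, which shares no array with them but shares the estimate of the spread. Of these, 62 were higher in heated A2QK (12.4%) and 157 lower (31.4%), against 7.58% and 5.82% of all probe sets, and their median difference was -0.42. The fit of the 8 A2QK and hsfa2 arrays called 86 of them higher (17.2%, against 13% of all) and 227 lower (45.4%, against 11.6%). Among the 338 that were also lower in heated QK than in heated WT, 34 were higher (10.1%) and 133 lower (39.3%), with a median of -0.60. Among the 162 not called lower in QK, 28 were higher (17.3%) and 24 lower (14.8%), with a median of -0.28. The count of 157 was 97 without heated A2QK replicate 1 and 98 without replicate 2. Of the 500, 372 were called as raised by heat within A2QK (6.59% of all probe sets were) and 446 within hsfa2 (5.61%), the response being called smaller in A2QK for 83 (16.6%, against 0.607% of all) and larger for 13 (2.60%, against 1.33%). At 22 °C 50 of the 500 (10.0%, against 1.62% of all) were already higher in A2QK, 30 of which were not called after heat, and 14 (2.80%, against 1.13%) were lower. Same-numbered QK and WT arrays deviated together, and with the replicate number as a block in a fit of these 8 arrays the class held 522 probe sets, 63 of them higher and 159 lower in heated A2QK. The 664 probe sets lowered by at least 2-fold in heated WT (2.92%) were higher in heated A2QK for 138 (20.8%) and lower for 23 (3.46%).

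**Figure D3:**
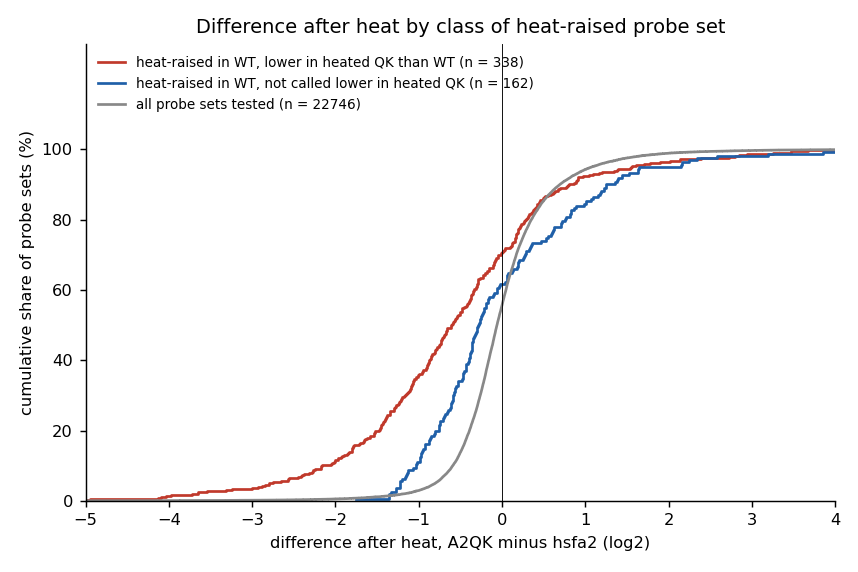
Cumulative share of probe sets (%, vertical axis) by their difference after heat (A2QK minus hsfa2, log2, horizontal axis; values beyond the axis are not drawn). The 338 probe sets raised by heat in WT and lower in heated QK (median -0.60) lie left of the 162 not called lower in QK (median -0.28), and both lie left of all 22746 (median -0.06) through their lower ranges.

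Some heat-raised WT genes were lower in heated A2QK by about 3 to 5 log2 units, and for these loci no function is stated here. AT2G07777 was at 2.37 and 2.62 in heated A2QK, against 7.56 and 7.32 in heated hsfa2 (difference -4.95, SE 0.28, limma adjusted p = 1.4e-06). On the other arrays it was at 7.12 and 7.74 in heated WT and at 2.46 and 2.69 in heated QK. AT1G10260 was at 4.73 and 4.62 in heated A2QK, against 8.63 and 8.78 in heated hsfa2 (difference -4.03, SE 0.17, adjusted p = 2.3e-07). Its level in heated QK was 2.34 and 2.60, so heated A2QK lay between QK and hsfa2. AT4G18450 (-4.13), AT1G62730 (-4.09), AT1G48720 (-3.72), AT4G24410 (-3.31) and AT5G35320 (-2.93) were lower too, each with a heat response called smaller in A2QK. AT1G11270, not called as heat-raised in WT, was also lower (-3.65).

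Of the heat-raised WT genes, some had differences near 0, which was the rule for naming them. AT1G21550 was at 10.94 and 10.67 in heated A2QK, against 10.58 and 10.72 in heated hsfa2 (difference 0.16, 95% interval -0.68 to 0.99, limma adjusted p = 0.84), and at 3.25 and 4.04 in heated QK. AT5G64950 differed by -0.08 (SE 0.37), and stood at 8.43 and 8.14 in heated A2QK against 8.53 and 8.19 in heated hsfa2. AT1G66510 differed by 0.17 (SE 0.20), at 7.90 and 7.39 in heated A2QK against 7.48 and 7.46 in heated hsfa2. No call was made for AT1G21550, AT5G64950 or AT1G66510, and in each the ranges of the 2 genotypes overlapped.

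Others exceeded hsfa2. AT2G21820 was at 10.68 and 10.39 in heated A2QK, against 4.92 and 4.66 in heated hsfa2, a difference of 5.75 (SE 0.28, limma adjusted p = 5.6e-07), equal to a level 53.6-fold higher. Heat raised it in WT by 2.66, and a difference between A2QK and hsfa2 was called for it at 22 °C too. AT5G07330 was at 12.51 and 12.29 in heated A2QK, against 9.17 and 9.23 in heated hsfa2 (difference 3.20, SE 0.61, adjusted p = 0.0054), and at 22 °C at 8.96 and 9.15 in A2QK against 3.32 and 2.70 in hsfa2. AT4G16660 (2.58) and AT4G29520 (2.25) were higher after heat with a larger heat response in A2QK, a call that ended for AT4G29520 without 7 of the 8 arrays in turn (highest adjusted p 0.0872). Both were as high in heated QK, at 8.94 and 9.45 for AT4G16660 and 9.19 and 9.61 for AT4G29520, against 7.34 and 7.22, and 7.07 and 6.86, in heated WT. AT1G02700 (3.86), AT3G62780 (2.72), AT3G16330 (2.34) and AT4G39235 (2.17) were higher as well. A difference at 22 °C was also called for AT1G02700, AT3G62780 and AT4G39235, though each of these calls ended when some single arrays were left out.

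The difference between heated A2QK and hsfa2 was in part there without heat. Of the 1724 probe sets higher after heat, 196 were also higher at 22 °C (53.3% of the 368 called higher there), and of the 1324 lower, 184 were also lower at 22 °C (71.9% of 256). Another 273 higher and 105 lower had a heat response called as different in the same direction but no call at 22 °C. For 1255 higher and 1035 lower probe sets, neither the 22 °C difference nor the difference between heat responses was called. Over all 22746 probe sets the 2 differences correlated at r = 0.54, a description across probe sets, which are not independent.

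**Figure D4:**
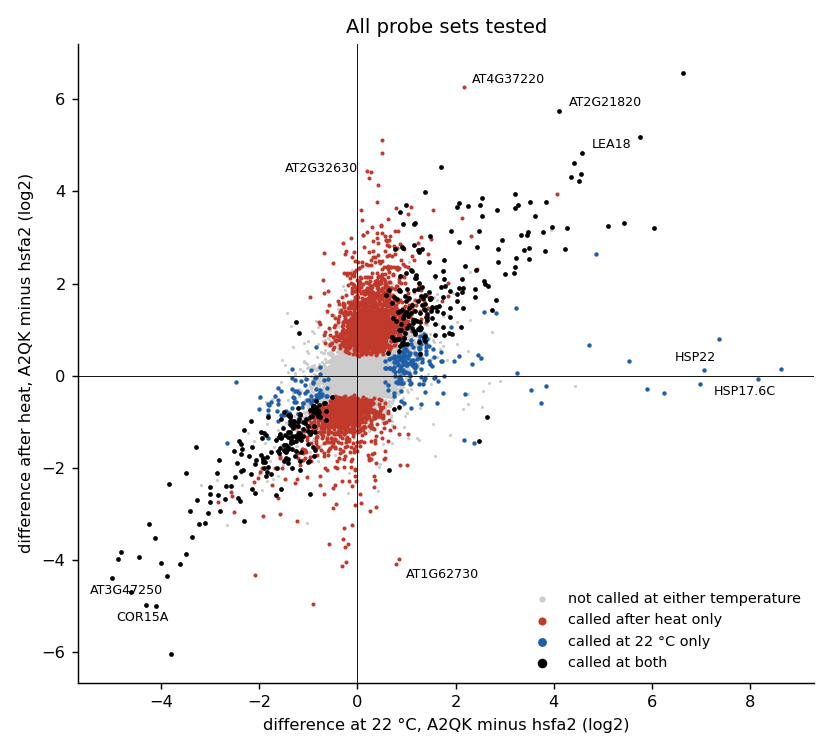
Difference after heat (vertical axis) against difference at 22 °C (horizontal axis), both A2QK minus hsfa2 on the log2 scale, 1 point a probe set. COR15A and LEA18 lie along the diagonal, HSP17.6C (8.17 at 22 °C, -0.07 after heat) and HSP22 lie along the horizontal axis, and AT2G32630 (0.28 at 22 °C, 4.42 after heat) lies along the vertical axis.

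Some genes were high in heated A2QK and low in the other 7 groups. AT2G32630 was at 7.38 and 7.27 in heated A2QK, against 2.99 and 2.81 in heated hsfa2 (difference 4.42, SE 0.17, limma adjusted p = 2.3e-07), and between 2.45 and 3.41 on the other 14 arrays of the study. AT3G61090 was at 7.69 and 7.87 in heated A2QK, against 2.96 and 4.02 in heated hsfa2 (difference 4.29, SE 0.29, adjusted p = 4.2e-06). AT5G40645 was at 6.50 and 5.43 in heated A2QK, against 2.23 and 2.51 in heated hsfa2 (difference 3.60, SE 0.28, adjusted p = 1.2e-05). AT4G20350 was at 7.34 and 7.25 in heated A2QK, against 3.82 and 4.00 in heated hsfa2 (difference 3.39, SE 0.25, adjusted p = 9.5e-06). The heat response was called larger in A2QK for AT2G32630 (4.14), AT3G61090 (4.06), AT5G40645 (3.53) and AT4G20350 (3.29). AT4G37220, with the largest difference of a probe set listed with a single gene, was at 10.19 and 10.12 in heated A2QK, against 3.60 and 4.19 in heated hsfa2 (difference 6.26, SE 0.72, adjusted p = 0.00021). Its difference at 22 °C was 2.17 and not called.

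Late embryogenesis abundant proteins protect cells as they dry, above all in seeds. This family was picked after its values were seen, so it is given as a description. Its 6 members are the measured genes whose symbol or synonym matched the family name, and other members may be missed. Of these 6, 4 were higher in heated A2QK (66.7%, against 7.58% of all probe sets) and none was lower, with a median difference of 2.59. These shares hold for the matched genes alone. LEA18 (AT2G35300) was at 8.45 and 8.16 in heated A2QK, against 3.61 and 3.32 in heated hsfa2 (difference 4.84, SE 0.80, limma adjusted p = 0.0023). It was as far apart at 22 °C, with 7.56 and 7.66 in A2QK against 3.49 and 2.60 in hsfa2 (difference 4.57, adjusted p = 0.011, or 0.0941 to 0.121 without unheated hsfa2 replicate 2 or either unheated A2QK array). AtLEA4-1 differed by 3.60, LEA4-5 by 3.04 and the gene with the symbol LEA (AT2G21490) by 2.15. These members were also high in heated QK, where LEA18 was at 9.50 and 10.13, against 2.66 and 4.93 in heated WT. None of 11 seed and embryo markers was measured. AT3G17520 (4.63), AT3G15670 (3.95) and AT1G50290 (3.77) were higher too, with QK high beside A2QK, and none of their differences between heat responses was called.

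A pair of cold-regulated genes had the lowest differences of all probe sets listed with a single gene. COR15A (AT2G42540) and COR15B (AT2G42530) encode proteins of the chloroplast stroma that protect membranes in freezing. COR15A was at 5.94 and 6.02 in heated A2QK, against 10.89 and 11.00 in heated hsfa2 (difference -4.97, SE 0.40, limma adjusted p = 1.6e-05). COR15B was at 5.68 and 5.65 in heated A2QK, against 10.60 and 10.70 in heated hsfa2 (difference -4.99, SE 0.82, adjusted p = 0.0022). The hsfa2 arrays stood apart here from the other genotypes, since COR15A was at 4.44 and 4.12 in heated QK and 4.92 and 3.75 in heated WT. At 22 °C the differences were -4.30 for COR15A and -4.10 for COR15B, both called, though that of COR15B ended without any 1 of the 4 unheated arrays (adjusted p 0.104 to 0.185). Of 4 measured genes of the list on abscisic acid, drought and cold (22 in all), COR15A and COR15B were lower (50%, against 5.82% of all probe sets). The dehydrins LTI30 (1.26, adjusted p = 0.12) and COR47 (0.62, adjusted p = 0.37) were not called, while the fit of the 8 arrays called both dehydrins higher (0.00041 and 0.0098).

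Further loci were nearly as far apart at both temperatures, with QK beside A2QK and WT beside hsfa2. AT1G23960 was at 3.12 and 3.32 in heated A2QK, against 7.85 and 7.97 in heated hsfa2 (difference -4.69, SE 0.22, limma adjusted p = 4.7e-07). It was also low in heated QK (3.22 and 3.31) and high in heated WT (8.12 and 7.34). AT3G47250 (-4.38), AT3G43740 (-4.06) and HTB11 (-2.94), an H2B histone, had the same order. A2QK and QK share both the mixed Col-0 and Ws background and the loss of the HSFA1 genes, and these cannot be told apart. ZW9 differed by -3.98 (SE 1.03, limma adjusted p = 0.026) without that order of genotypes. Heated QK read 7.62 and 7.65, beside heated hsfa2 (7.35 and 7.47) and not heated A2QK (3.39 and 3.46). The QK arrays at 22 °C read 4.45 and 9.29 for ZW9, and its call was lost without any 1 of the 4 heated arrays (adjusted p 0.0853 to 0.123). AT1G62290 was high in A2QK at both temperatures, at 10.41 and 10.45 after heat against 6.57 and 6.75 in heated hsfa2 (difference 3.77, SE 0.38, adjusted p = 8.6e-05), while heated QK read 7.97 and 7.57.

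Calls were set beside those of QK minus WT after heat, which shares no array with A2QK minus hsfa2 but shares the estimate of the spread. Of 949 probe sets higher in heated QK than WT (4.17% of those tested), 359 were also higher in heated A2QK than hsfa2, which is 37.8% of the QK list and 20.8% of the A2QK list. Of 758 lower in heated QK (3.33%), 278 were lower in heated A2QK too, which is 36.7% of the QK list and 21.0% of the A2QK list. A call in the opposite direction was found for 65 of the 1724 and for 12 of the 1324. Calls in the same direction in both pairs at both temperatures were found for 56 higher and 62 lower probe sets, where QK minus WT at 22 °C had 1.22% called higher and 0.972% called lower. With the replicate number as a block in a fit of the 8 QK and WT arrays, QK minus WT had 1188 higher and 895 lower, of which 380 (32.0%) and 282 (31.5%) were called the same way in A2QK minus hsfa2.

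Of 69 plastid-encoded genes measured, 19 were lower in heated A2QK (27.5%, against 5.82% of all probe sets) and none was higher, with a median difference of -1.10 after heat and -1.35 at 22 °C, and the fit of the 8 arrays alone called 52 lower (75.4%, against 11.6%) and 1 higher. Of 10 genes of the NDH complex, which cycles electrons around photosystem I, 7 were lower. The gene ndhG was at 3.69 and 3.62 in heated A2QK, against 6.00 and 6.25 in heated hsfa2 (difference -2.47, SE 0.21, limma adjusted p = 2.7e-05). For ndhJ the levels were 8.09 and 8.14 in heated A2QK, against 10.68 and 10.70 in heated hsfa2 (difference -2.58, SE 0.56, adjusted p = 0.011). Heated WT read 7.14 and 8.25 for ndhJ, so hsfa2 was the highest genotype there. For ndhG heated WT (5.81 and 5.36) and heated QK (5.07 and 5.23) lay between. The order of genotypes thus varied by gene. For psaC, QK (8.14 and 8.36) and WT (9.04 and 8.05) lay above A2QK (4.04 and 3.62) and hsfa2 (5.38 and 4.52) after heat. Replicates of heated QK stood at 5.27 and 8.04 for rpoC1, but at 10.10 and 10.31 for ndhC. What set these levels apart was not tested. Photosystem genes had 6 of 20 lower, ribosomal protein genes 2 of 15 and ATP synthase genes 1 of 6. For no plastid gene was the difference between heat responses called. In the nucleus the Calvin cycle gene PRK (0.02) and the rubisco activase gene RCA (0.46) were not called, RCA being called higher in the fit of the 8 arrays (adjusted p = 0.029).

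Of 11 mitochondrial genes measured, with 1 probe set counted a gene, 5 were lower in heated A2QK (45.5%, against 5.82% of all probe sets) and 6 were not called, with a median difference of -0.48. Over all 18 mitochondrial probe sets, 7 were lower (38.9%) and none was higher, with differences from -2.80 to 0.32. The heat response was called smaller in A2QK for 1 of the 18. The complex I genes nad9 and nad4L were low at 22 °C in every genotype and high after heat. For nad9 the levels were 7.09 and 7.06 in heated A2QK, against 8.06 and 8.01 in heated hsfa2 (difference -0.97, SE 0.14, limma adjusted p = 0.0011), and 3.24 and 3.06 in unheated A2QK against 3.37 and 3.09 in unheated hsfa2. Its heat response difference of -0.88 was not called (adjusted p = 0.051). The gene nad4 (-1.42), another complex I gene, and cox1 of complex IV (-0.87) were lower at both temperatures, by -2.42 and -1.375 at 22 °C. After heat nad4L was lower by -1.02 and matR by -0.67, while nad6 (-0.39) and cox2 (-0.21) were not called.

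**Figure D5:**
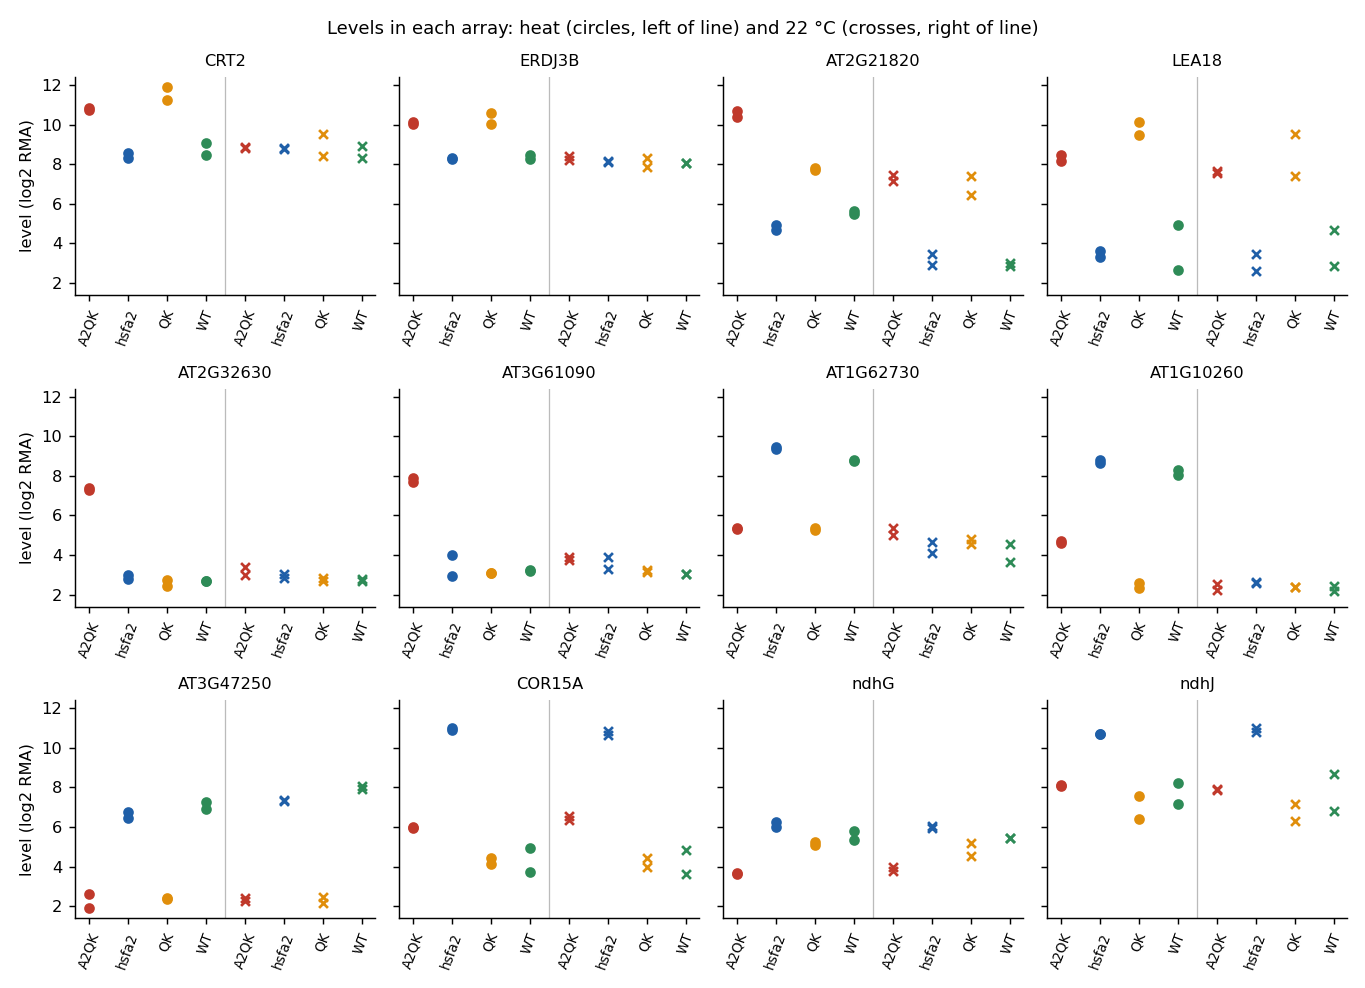
Level of 12 genes on each of the 16 arrays (log2 RMA value, vertical axis), heated groups left of the line and 22 °C groups right of it, in the order A2QK, hsfa2, QK, WT. CRT2 and ERDJ3B are high in heated A2QK and heated QK, AT2G32630 and AT3G61090 in heated A2QK alone, and COR15A in hsfa2 at both temperatures.

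Among 5 measured genes of auxin response, 2 were higher in heated A2QK (40%, against 7.58% of all probe sets) and none was lower. WAG2 (AT3G14370), a kinase that steers auxin transport, was at 5.20 and 5.18 in heated A2QK, against 3.57 and 3.14 in heated hsfa2 (difference 1.84, SE 0.20, limma adjusted p = 0.00015). GH3.3, which conjugates auxin to amino acids, differed by 1.29 (adjusted p = 0.0080). IAA29, a repressor of auxin signalling, was lower at 22 °C (-1.61, adjusted p = 0.00033) and not after heat (-0.26, adjusted p = 0.35), and its heat response was larger in A2QK by 1.35 (adjusted p = 0.014), a call that ended without heated A2QK replicate 1 or any 1 of the 4 unheated arrays (highest 0.075). Of 29 xyloglucan-modifying enzymes and expansins, which loosen or remodel walls, 4 were higher (13.8%, against 7.58% of all probe sets) and none was lower. The 4 were EXLA2 (1.79), XTH18 (1.64), XTH16 (1.39) and XTH33 (1.33). The fit of the 8 arrays called 7 higher (24.1%, against 13% of all) and 1 lower (3.45%, against 11.6%). Leaving out heated hsfa2 replicate 2 or either heated A2QK array ended the call of XTH33 (adjusted p 0.0506 to 0.0634), and leaving out heated hsfa2 replicate 2 or heated A2QK replicate 1 that of GH3.3 (0.0536 and 0.0630).

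UDP-glycosyltransferases attach sugars to hormones and secondary metabolites. Of 51 measured, 8 were higher in heated A2QK (15.69%, against 7.58% of all probe sets), 2 were lower (3.92%, against 5.82%) and 41 were not called, with a median difference of -0.08 against -0.06 over all probe sets. With the 8 arrays alone 11 were higher (21.6%, against 13% of all probe sets) and 6 lower (11.8%, against 11.6%). UGT73C1 was at 7.20 and 7.37 in heated A2QK, against 5.02 and 4.27 in heated hsfa2 (difference 2.64, SE 0.27, limma adjusted p = 8.4e-05), and at 3.36 and 3.41 in heated QK. UGT71C2 was at 7.74 and 7.25 in heated A2QK, against 3.61 and 3.89 in heated hsfa2 (difference 3.75, SE 0.25, adjusted p = 3.8e-06). UGT76B1 (1.76) and UGT74F1 (1.46), which are known to glucosylate salicylic acid, were higher too, and UGT85A5 (-1.94) and UGT85A2 (-1.36) were lower. WRKY53, a senescence and defence transcription factor, was the 1 of 7 WRKY factors called (2.65, limma adjusted p = 0.021), which is 14.3% against 13.4% of all probe sets. It was 1 of 2 in the fit of the 8 arrays (28.6%, against 24.5% of all). Its levels were 5.28 and 5.09 in heated A2QK against 2.84 and 2.23 in heated hsfa2.

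Other lists had few or no calls. None of 2 antioxidant enzymes, 4 jasmonate and defence genes, 7 peroxidases, 13 glutathione S-transferases or 1 clock gene was called in the shared fit. In the fit of the 8 arrays 1 glutathione S-transferase was higher (7.69%, against 13% of all probe sets) and 3 were lower (23.1%, against 11.6%). PDF2.1, a jasmonate and defence gene, was lower there too (-1.02, limma adjusted p = 0.0014). Neither root marker was called, with EXPA7 at 4.30 and 3.69 in heated A2QK against 4.14 and 4.59 in heated hsfa2, and EXPA18 at 4.69 and 4.37 against 4.05 and 4.64. Of 3 reference genes used to scale expression assays, TIP41 (AT4G34270) was lower in heated A2QK, at 6.27 and 6.33 against 7.21 and 7.08 in heated hsfa2 (difference -0.84, SE 0.18, limma adjusted p = 0.011). SAND (0.47) and GAPC2 (-0.28) were not called, SAND being called higher in the fit of the 8 arrays (adjusted p = 0.040), and TIP41 lost its call without heated hsfa2 replicate 1 or either heated A2QK array (adjusted p 0.0557 to 0.0778).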

How the data were processed

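Levels are log2 RMA values, deposited by the authors as the value table of 22810 ATH1 probe sets on 16 arrays. RMA is named in the submitters' processing notes, and its software version is not given in the sources used here. Probe intensities were not used. The 64 control probe sets were left out. Of the 22746 others, 13513 are listed with a single gene (13436 matched in RefSeq TAIR10.1), 503 with several and 8730 are not listed.

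The test was limma 3.58.1 in R 4.3.3 (lmFit, eBayes) with 8 group means over all 16 arrays, two-sided, with Benjamini-Hochberg adjustment over all probe sets and a threshold of 0.05. The script was tested on simulated data. Genes were named as the 12 highest and 12 lowest called differences with groups that do not overlap, the 8 highest and 8 lowest heat response differences, the 8 highest, 8 lowest and the nearest to 0 of WT heat-raised genes, organelle genes, and members of 18 gene lists (60 of 243 measured) and of gene families matched by annotation. Members, lists and tests were chosen with earlier results of these data known. The late embryogenesis abundant and histone families and the plastid gene classes were added after their values were seen. A family matched by the letters CYP mixed cyclophilins with cytochromes P450 and is not described.

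Alternatives were equal array medians, quantile normalization, a filter on dim probe sets, eBayes with trend, fewer arrays, a replicate block and leaving out each array. Same-numbered heated A2QK and hsfa2 arrays deviated from their group means with a correlation of 0.059, and A2QK and hsfa2 have only 2 numbers, so these numbers are not treated as pairs. Among the QK and WT groups the correlations were 0.535 to 0.795, so a replicate block in a fit of those 8 arrays was added after seeing the data for QK minus WT and the WT heat-raised class.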

Additional observations from a re-analysis of the deposited data

Results flagged for a closer look

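Heat responses that differed between A2QK and hsfa2 by limma's test of the difference itself are listed here, 441 probe sets in all, with the log2 value of A2QK minus hsfa2 for the genes named. A smaller response in A2QK was called for 5 small heat shock proteins (11 measured), for 2 other heat-tolerance genes (4 measured) and for 4 co-chaperones (10 measured), and for no chaperonin or HSP70 gene. Over all probe sets 0.607% were called smaller and 1.33% larger. The values were -8.24 for HSP17.6C, -6.94 for HSP22, -6.63 for HSP17.6B, -5.22 for HSP26.5 and -4.33 for HSP15.7 among small heat shock proteins. They were -3.84 for AT2G20560, -2.82 for AT1G71000, -1.70 for AHA1 and -1.14 for HOP2 among co-chaperones, and -2.59 for HSA32 and -2.35 for the Hikeshi-like gene. The calls of HSP17.6C, HSP22, HSP26.5, HSP15.7, AT2G20560, AT1G71000 and AHA1 ended without any 1 of the 8 A2QK and hsfa2 arrays. That of HSP17.6B ended without 7 of the 8 in turn, those of HOP2 and the Hikeshi-like gene without 5, and that of HSA32 without 1. Unheated A2QK was above unheated hsfa2 by a called difference for the 5 small heat shock proteins, AT2G20560 and HSA32, and not for AT1G71000, AHA1, HOP2 or the Hikeshi-like gene. The 22 °C call of AT2G20560 also ended without any 1 of the 8 arrays.

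Loci with no function stated here also had a smaller response, namely AT1G62730 (-4.88), AT2G07777 (-4.05), AT5G25450 (-3.89), AT4G18450 (-3.82), AT1G10260 (-3.81), AT1G48720 (-3.46), AT5G35320 (-3.18), AT1G11270 (-3.08) and AT4G24410 (-3.05). The call of AT1G11270 ended without any 1 of the 8 arrays. Of these loci only AT5G25450 was called at 22 °C, where it was higher in A2QK (difference 2.48, limma adjusted p = 0.0024). After heat it was lower (difference -1.42, adjusted p = 0.017), a call that ended without any 1 of the 4 heated arrays.

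A larger response in A2QK was found for AT2G32630 (4.14), AT3G61090 (4.06), AT5G40645 (3.53), AT4G20350 (3.29), AT5G28430 (2.95), AT1G35510 (2.94), AT5G17780 (2.84), AT4G35940 (2.80), AT1G73340 (2.61), AT4G16660 (2.26), AT4G29520 (1.62) and AT3G16330 (1.49). The endoplasmic reticulum genes CRT2 (2.31) and ERDJ3B (1.62) had a larger response as well. So had the glycosyltransferases UGT73C1 (1.88), UGT76B1 (1.77), UGT71C2 (1.67) and UGT71B5 (1.17), the auxin genes GH3.3 (1.68) and IAA29 (1.35), and XTH16 (1.54). The calls of CRT2, UGT71C2 and AT3G16330 ended without any 1 of the 8 arrays. Those of GH3.3, AT5G17780, ERDJ3B and AT4G29520 ended without 7 of the 8 in turn, and that of IAA29 without 5. UGT73C1, UGT76B1, UGT71B5 and XTH16 were not followed with arrays left out.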

How the results depend on the processing

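The count called after heat was 3048, and 3528 with the replicate number as a replicate block. At 22 °C it was 624 and 795 with the block, for the difference between heat responses 441 and 543, and for WT heat-raised probe sets 69 higher and 175 lower with the block against 62 and 157. The block ended no direction and moved no count by over 1.5 times. Asking for a 2-fold difference left 1548 after heat, an unadjusted p under 0.05 gave 6172, and the filter on dim probe sets 1958, with 10906 tested. The 8 A2QK and hsfa2 arrays alone gave 5583 after heat, 2004 at 22 °C and 1323 for the heat responses. WT heat-raised probe sets of at least 4-fold gave 20 higher and 101 lower. With array medians set equal, 38.1% of the calls at 22 °C were higher in A2QK against 59.0%. Leaving out 1 array gave 1321 to 2742 after heat, 169 to 574 at 22 °C, 124 to 269 for heat responses, 42 to 57 WT heat-raised higher and 97 to 153 lower; fewer arrays enlarge the standard errors by construction. At 22 °C the count was 285 without hsfa2 replicate 1, 209 without hsfa2 replicate 2, 169 without A2QK replicate 1 and 204 without A2QK replicate 2. Of 103 genes followed under every setting, 55 were called after heat, 47 of these kept call and direction throughout, and the 8 others lost the call when an array was left out, HSP18.5 and AT5G25450 also with the 8 heated arrays alone (adjusted p 0.0699 and 0.0520). No called difference changed sign. Of 31 genes called at 22 °C 15, and of 37 called for heat responses 20, lost the call in at least 1 setting, each of them when an array was left out and 2 and 11 of them whichever of the 8 arrays was. Another setting also ended the call for 4 at 22 °C (AT3G62780, ROF2, WAG2 and ZW9) and 7 of the heat responses (HSP17.6C, HSP22, HSP26.5, HSP15.7, AT3G16330, CRT2 and AHA1), by a trended prior, equal medians or quantile normalization, and the 8 A2QK and hsfa2 arrays alone ended none. Uncalled differences near 0 changed sign: with equal array medians SAG101 -0.10, PRK -0.11 and HSP22 -0.014, with quantile normalization TAPX 0.0057, THI2.1 0.082 and HSP17.6C 0.12, and, as ranges with 1 array left out, AT5G64950 -0.24 to 0.094, TAPX -0.068 to 0.054, THI2.1 -0.29 to 0.18, SAG101 -0.15 to 0.20, GH3.1 -0.12 to 0.43, EXPA18 -0.12 to 0.48, AT1G66510 -0.084 to 0.43, SAPX -0.022 to 0.30 and PRK -0.056 to 0.11. The cause was not tested. With 2 arrays a group, genes with wide QK and WT spread, such as HSP17.6C (3.54 and 9.50 in heated QK), could be called only at large differences.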
